A study of Danio rerio with 8 samples.

Results

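The 8 libraries of this RNA-seq series were split by the number in their sample titles, and the 4 clutches numbered 1 and 2 (S2 and S4, *fmr1* mutant, and A and D, wild type) were compared with the 4 numbered 3 and 4 (S5 and S8, mutant, and G and L, wild type). Each set thus held 2 mutant and 2 wild type clutches, and genotype was a term of the fit. The comparison was made over the 23567 of 32057 genes for which 4 or more libraries held a count above 1. The other 8490 genes were not tested. The split was chosen by earlier results of these same data, in which the first principal component of the log2 expression values set the wild type clutches A and D apart from G and L (29.6% of the variance, with A at 57.4 and D at 62.3, against -12.01 for G and -25.8 for L). What follows on the sets is therefore a description of how the clutches divided, and carries no test of the split. The same holds for the interaction of genotype and set, because the wild type difference that drew attention to the split is one side of it. A few measures of the libraries, on which the choice did not rest, were tested.

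Mutant embryos were homozygous for hu2787, a non-sense allele of *fmr1*, the zebrafish orthologue of the human gene silenced in fragile X syndrome. Wild type embryos descended from the same imported fish population. All were raised in E3 embryo medium and collected at 2 dpf, and the w2 allele of the pigment cell gene *mitfa* was also present in some of the families according to the methods of the study. Every library was a pool of whole embryos (named larvae in the labels) from 1 clutch, and each clutch came from its own pair of parents. A title number followed the alphabetical order of the clutch names within a genotype, and no label said that it stood for a batch or a day. Clutch, parents, time of collection and handling cannot be told apart within a set.

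A whole-embryo transcriptome sums every tissue, so it moves with developmental stage as well as with what cells are doing at the moment of collection. At this age the retina, lens, muscle and gut are still differentiating, the circadian clock has begun to be set by light, and handling or warming can switch on immediate early and heat shock genes within minutes. Transcription of a long gene also takes more time than that of a short one, because the polymerase must cross all of its introns. In pools of whole embryos, fewer cells of a type and less RNA per cell cannot be told apart.

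Library totals lay between 29726950 and 33205738 counted reads in clutches 1 and 2 and between 29296538 and 33165593 in clutches 3 and 4 (n = 4 each, exact permutation test within genotype, two-sided p = 0.5, adjusted p = 0.667 over 4 measures). Mitochondrial transcripts took 2.71 ± 0.22% of counts in clutches 1 and 2 and 3.0 ± 0.17% in clutches 3 and 4 (SD, exact permutation p = 0.167, adjusted p = 0.333). The 10 most abundant genes took 9.05 ± 0.65% against 9.84 ± 0.65% (exact permutation p = 0.111, adjusted p = 0.333), and 24339 ± 211 against 24332 ± 141 genes had at least 1 count (exact permutation p = 0.944, adjusted p = 0.944). With 36 arrangements of the clutches within genotype, the smallest p this design allows is 0.0556. The mutated gene fitted the labels: *fmr1* lay between 19.5 and 23.4 CPM (read counts scaled by library size and TMM factor) in the mutant clutches and between 47.1 and 54.2 CPM in the wild type clutches. Its set difference was 0.08 on the log2 scale, and that of *mitfa* was -0.28 ± 0.19 (SE), and neither was called.

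A gene was called when the Benjamini-Hochberg FDR of the set term in edgeR's quasi-likelihood fit was under 0.05. On that measure 1218 genes (5.17%) were higher and 300 genes (1.27%) were lower in clutches 1 and 2, so that 80.2% of the 1518 called genes were higher. The higher genes had a median log2 fold change of 0.87 and the lower genes of -0.55, against -0.05 over all genes tested, where the median SE was 0.18. The sets did not overlap, with all 4 clutches of one above all 4 of the other, for 2109 genes that were higher (8.95%) and 1411 genes that were lower (5.99%) in clutches 1 and 2. These counts leaned on single clutches. Without S2, 289 genes were called higher and 17 lower. Without A these numbers were 387 and 38, without D 574 and 41, without G 657 and 72, and without L 358 and 34. Leaving out S4, S5 or S8 left between 1177 and 1298 genes called higher and between 283 and 403 called lower, but in part other genes. Of the 1218 genes called higher with all clutches, 1068 stayed called without S4, 957 without S5 and 998 without S8. Of the 300 called lower, 157, 197 and 160 did.

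All 1518 called genes had the same direction in the mutant pairs of clutches (S2 and S4 minus S5 and S8) as in the wild type pairs (A and D minus G and L). The calls favour such genes, because a gene that moved in opposite directions has no average difference to call. Over all 23567 genes 58.1% had the same direction in both genotypes, and the mutant and wild type differences, which share no library, had Pearson's r of 0.16 and Spearman's rho of 0.21 across genes, which are not independent of each other. Among the 18282 genes with a mean of at least 1 CPM, r was 0.22 and rho was 0.26. For 5031 genes the 2 clutches of one set lay on the same side of the 2 of the other in both genotypes, while for 2164 genes they lay on opposite sides. Fitted alone, the wild type clutches gave 1900 genes higher and 1488 lower. The mutant clutches alone gave 0 in each direction by edgeR's quasi-likelihood fit, with 3430 genes at an unadjusted p under 0.05, and no other tool was run on them alone. The second principal component (23.7% of the variance) placed S2, S4, A and D at 49.1, 46.5, 5.94 and 9.39, against -43.8, 3.28, -27.6 and -42.8 for S5, S8, G and L, so that S8 lay nearest to clutches 1 and 2.

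The genes with the largest difference in the direction of clutches 1 and 2 were mostly of low abundance. *lcor*, which encodes a ligand-dependent corepressor of nuclear receptors (ENSDARG00000100908, GRCz11 chromosome 22, 34784075 to 34818128), had 4.85, 3.49, 3.98 and 4.12 CPM in S2, S4, A and D, against 0.589, 0.836, 1.03 and 0.642 CPM in S5, S8, G and L. Every clutch of the first set thus lay well above every clutch of the second. This was a log2 fold change of 2.4 ± 0.24 (SE), with 2.45 in the mutant clutches and 2.23 in the wild type clutches.

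*ankrd52a*, an ankyrin repeat gene whose human orthologue encodes a regulatory subunit of protein phosphatase 6, had 16.1, 10.9, 17.0 and 15.9 CPM in S2, S4, A and D and 3.17, 4.82, 4.03 and 2.34 CPM in S5, S8, G and L. It was 4.15-fold higher in clutches 1 and 2 (log2 fold change 2.05 ± 0.24), and its sets were well separated although S4 lay below the other 3. The other 8 of the 10 largest were *mxra5b*, a matrix remodelling gene (log2 fold change 2.25), the zinc finger genes *znf821* (2.18) and *znf704* (1.88), *scn1laa*, a voltage-gated sodium channel (2.1), *MTSS2* (ENSDARG00000087260), which binds membranes and actin (1.97), *sbno2a*, a transcriptional coregulator (1.91), *MAP3K13*, a kinase upstream of JNK (1.85), and *wnt9a*, a Wnt ligand (1.84). Of these 10 genes, 8 kept the call whichever clutch was left out. The exceptions were *znf704*, which lost it without S2 or A, and *scn1laa*, which lost it without S2, S5, S8, A or L. The *scn1laa* level was low throughout, at 1.44, 1.88, 2.41 and 1.07 CPM in S2, S4, A and D and 0.294, 0.482, 0.656 and 0.113 CPM in S5, S8, G and L.

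**Figure D1:**
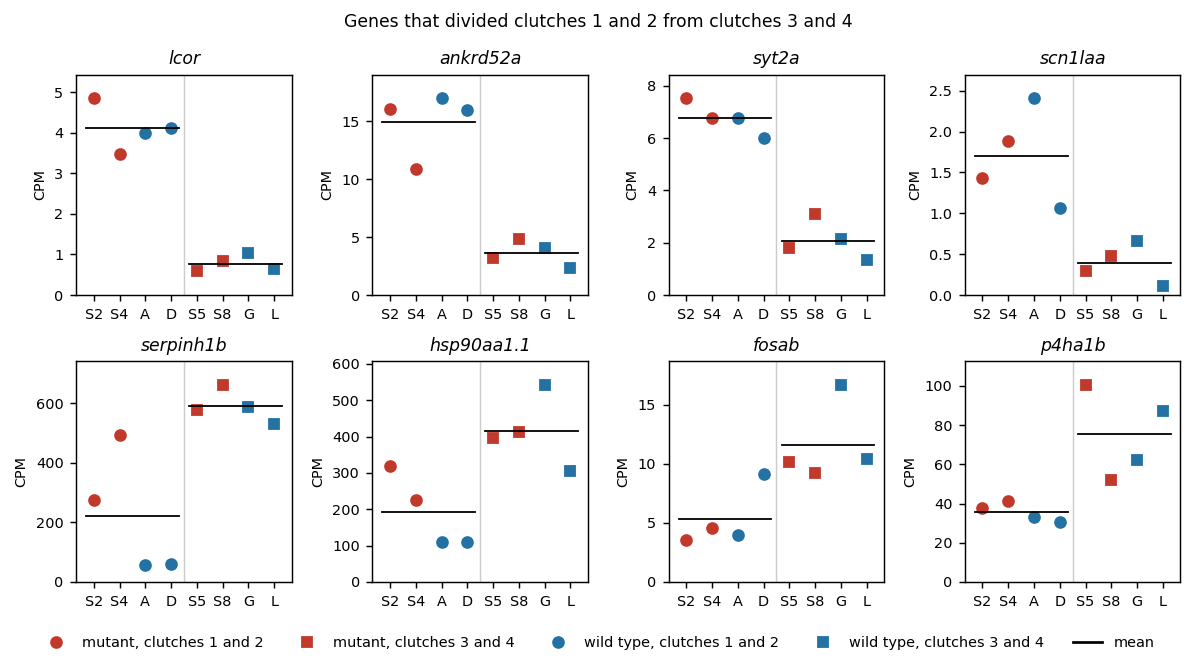
Level (CPM, linear axis from 0) of 8 genes in each clutch, with clutches 1 and 2 left of clutches 3 and 4, red for mutant and blue for wild type, circles and squares for the sets and a line for the mean of each set of 4. *lcor*, *ankrd52a*, *syt2a* and *scn1laa* lie higher in all 4 clutches numbered 1 and 2, *serpinh1b*, *fosab* and *p4ha1b* lie lower in all 4, and for *hsp90aa1.1* S2 (320 CPM) lies above L (306 CPM).

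In the other direction the collagen chaperone gene *serpinh1b* (Hsp47, ENSDARG00000019949, chromosome 15, 29382454 to 29388012) stood first. It had 276, 492, 58.6 and 61.8 CPM in S2, S4, A and D, against 576, 660, 589 and 531 CPM in S5, S8, G and L. The sets did not overlap, but A and D were far lower than S2 and S4. Its log2 fold change was -1.95 ± 0.49, made of -0.74 in the mutant clutches and -3.21 in the wild type clutches, and the call was lost without S2, S8, A, D, G or L.

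The 10 largest differences in this direction held another gene of collagen production, although the bone and fibrillar collagen list had a median of -0.02 (mutant 0.25, wild type -0.09). Of its 22 genes 0 were called by edgeR's quasi-likelihood fit (2 at an unadjusted p under 0.05). The likelihood-ratio test called 2, DESeq2 2 and limma-voom 0. *p4ha1b*, a catalytic subunit of the oxygen-dependent collagen prolyl 4-hydroxylase, had 37.9, 41.5, 33.0 and 30.4 CPM in S2, S4, A and D and 100.4, 52.2, 62.0 and 87.4 CPM in S5, S8, G and L. All 4 clutches of the first set lay below those of the second, for a log2 fold change of -1.09 ± 0.20 that was similar in mutant (-0.87) and wild type clutches (-1.21). The remaining 8 of the 10 were *ALPP*, an alkaline phosphatase (-1.94), the immediate early genes *egr4* (-1.35) and *fosab* (-1.15), *parapinopsinb*, a non-visual opsin of the pineal (-1.31), *ly97.3* (-1.31), *hsph1*, a large chaperone of the Hsp110 family (-1.27), the forkhead gene *foxq1a* (-1.14) and *cpn2*, a subunit of carboxypeptidase N (-1.09). Of these 10 genes 0 kept the edgeR call in all 8 fits without 1 clutch. *ALPP* and *foxq1a* lost it only without S2, and *parapinopsinb* lost it in every one. None of the 61 named genes that were called changed direction in these fits, and 13 kept the call in all 8. These genes were picked for their differences in the same 8 libraries, so the unchanged direction was largely set by that choice.

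The called genes differed in genomic span, the distance from the start to the end of a gene with its introns. The median span was 48.6 kb for genes higher in clutches 1 and 2 and 9.46 kb for genes lower in them, against 15.18 kb for all genes tested. Of the genes called higher, 596 (48.9%) spanned more than 50 kb, as did 12 (4%) of the genes called lower and 4173 (17.7%) of all genes. When all genes were ordered by span and cut into 10 equal parts, the share called higher was 0.849% in the shortest part (median 1.82 kb) and 15.4% in the longest (median 127 kb). The share called lower ran the other way, with 2.04% in the shortest and 0.297% in the longest part.

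The trend with span appeared within each genotype. In mutant clutches the median log2 difference was -0.16 in the shortest part and 0.27 in the longest, and in wild type clutches it was -0.14 and 0.09. Across genes, Spearman's rho of the set difference with span was 0.30 in mutant and 0.17 in wild type clutches, and with the summed exon length 0.15 and 0.09. Span and exon length are themselves related (rho = 0.61). Among genes with a span above the median but an exon length at or below it, 312 of 3266 (9.55%) were called higher. With a span at or below the median and an exon length above it, 47 of 3264 (1.44%) were.

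Genes spanning more than 50 kb took 14.2, 14.1, 12.04 and 12.96% of the counts in S2, S4, A and D and 10.8, 12.3, 12.2 and 11.3% in S5, S8, G and L. The sets overlapped here, as A lay below S8 and G, and the difference was not tested. An offset that took out the smooth trend of each library with span left 938 genes higher (3.98%) and 210 lower (0.891%), of which 869 and 116 had also been called without it. An offset for exon length left 1195 higher (5.07%) and 221 lower (0.938%). The cause of the trend with span was not tested.

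**Figure D2:**
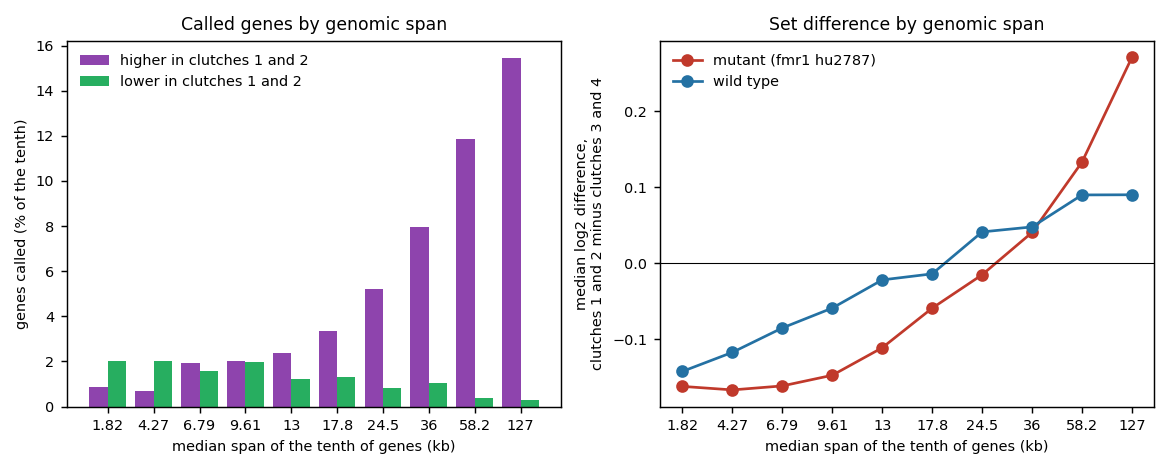
Left, share of genes called (%) in 10 equal parts of all tested genes ordered by genomic span, with the median span of each part in kb on the horizontal axis, purple for genes higher and green for genes lower in clutches 1 and 2. Right, median log2 difference (clutches 1 and 2 minus clutches 3 and 4) of the same parts in mutant (red) and wild type (blue) clutches, which goes up with span to 0.27 in mutant and 0.09 in wild type clutches in the longest part.

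The circadian clock was the list with the most calls toward clutches 1 and 2. The core clock is a loop in which Clock and Bmal activators drive the *per*, *cry*, *nr1d* and PAR bZIP (*tef*, *dbp*, *hlf*) genes, whose Per and Cry products then inhibit the activators. Of 50 clock genes tested, 7 were called higher and 2 lower (5.17% and 1.27% over all genes), and 41 were not called. The list median was 0.27, with 0.28 in mutant and 0.26 in wild type clutches, against -0.05 over all genes, and 36 of the 50 had the same direction in both genotypes, as did 58.1% of all genes. With the span offset the median was 0.31, with 6 genes called higher and 1 lower. Among these 6 were *tefa* and *nfil3-5*, which were not called without it. The activator genes *clocka*, *clockb* and *bmal2* lost their calls with that offset.

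*rorb*, an orphan nuclear receptor of the family that activates *bmal* genes (ENSDARG00000033498, chromosome 5), had the largest difference. It stood at 21.1, 14.1, 18.4 and 19.3 CPM in S2, S4, A and D, against 7.40, 6.33, 9.03 and 7.21 CPM in S5, S8, G and L. Every clutch of the first set exceeded every clutch of the second, with a log2 fold change of 1.29 ± 0.15 (mutant 1.33, wild type 1.22) that stayed called without any 1 clutch. *rorb* is also expressed in the retina and brain, so its level in whole embryos is not that of the clock alone.

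Among the activators, *clocka* had a log2 fold change of 0.76, *clockb* of 0.57 and *bmal2* of 0.55, each with sets that did not overlap. The call of *clocka* was lost in each of the 8 fits without 1 clutch, and those of *clockb* and *bmal2* in 6. *bmal1a* was flat, at 23.4, 21.5, 21.2 and 24.3 CPM in S2, S4, A and D and 21.8, 23.5, 21.8 and 25.5 CPM in S5, S8, G and L (-0.04 ± 0.10, not called). *bmal1b* was at 0.30 and was not called.

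The output gene *tefb*, a PAR bZIP transcription factor, had 25.7, 26.5, 31.4 and 27.6 CPM in S2, S4, A and D and 13.3, 20.3, 15.9 and 12.3 CPM in S5, S8, G and L (0.85 ± 0.16). *ciartb*, a repressor of the Clock and Bmal pair, was at 0.71. The cryptochrome *cry3b* went the other way (-0.54), with 31.8, 37.9, 22.2 and 25.3 CPM in S2, S4, A and D, against 44.2, 42.1, 37.6 and 43.9 CPM in S5, S8, G and L. Its sets overlapped, since S4 lay just above G. Of the 8 fits without 1 clutch, *tefb* kept its call in 4, *cry3b* in 3 and *ciartb* in 1.

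The period genes were not called, although 3 of 4 had sizeable differences. *per1b* had 72.7, 35.8, 73.5 and 69.2 CPM in S2, S4, A and D, against 39.8, 26.0, 47.1 and 23.9 CPM in S5, S8, G and L (0.86 ± 0.26). S4 lay with the second set while S2, A and D lay together above it. *per3* had the same layout, with 48.6, 25.4, 51.3 and 52.8 CPM against 27.6, 28.3, 35.0 and 18.2 CPM in those clutches (0.69 ± 0.24), and *per1a* was at 0.81 ± 0.26. The light-induced *per2* was at 0.23 and *cry1a* at 0.17, with overlapping sets, and 0 of 9 light-induced genes were called by edgeR's quasi-likelihood fit (2 at an unadjusted p under 0.05, and 1, 1 and 0 by the likelihood-ratio test, DESeq2 and limma-voom). *nr1d1*, a repressor of *bmal* genes, varied more between clutches than between sets, with 10.9, 9.98, 4.85 and 3.66 CPM in S2, S4, A and D and 4.05, 4.08, 8.19 and 2.38 CPM in S5, S8, G and L. The hour of collection of a clutch was not given in the sources used here.

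**Figure D3:**
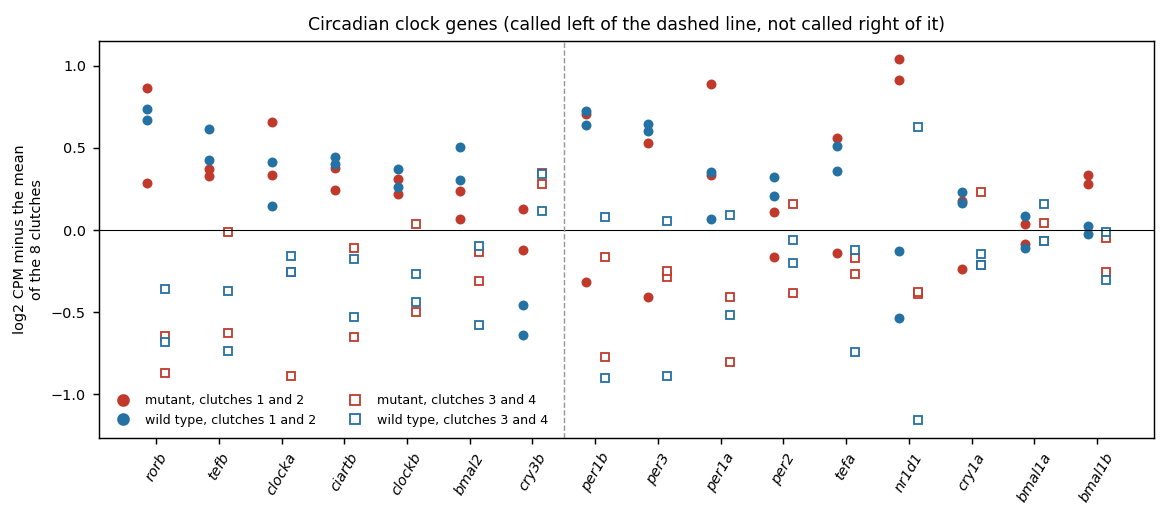
Level of 16 circadian clock genes in each clutch as log2 CPM minus the mean of the 8 clutches, with filled circles for clutches 1 and 2 and open squares for clutches 3 and 4, red for mutant and blue for wild type. Left of the dashed line are 7 called genes, where the sets separate for all but *cry3b*, and right of it are 9 genes that were not called, among them *per1b* and *per3*, where S4 falls among clutches 3 and 4.

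The heat shock list had a negative difference for 31 of its 35 genes, against 13086 of all 23567 genes. Such a share was not particular to it, as 30 of 32 endoplasmic reticulum stress genes and 28 of 31 liver genes were negative too. Heat shock chaperones refold damaged proteins and are induced by warming through the transcription factor Hsf1. Of the 35, 5 were called lower in clutches 1 and 2 and 1 was called higher, where 1.27% and 5.17% of all genes were. The list median was -0.38 (-0.05 over all genes), with -0.22 in mutant and -0.43 in wild type clutches. The summed level of the list lay between 10206 and 11194 CPM in clutches 1 and 2 and between 13018 and 14829 CPM in clutches 3 and 4.

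*hsph1* had 3.56, 2.76, 1.80 and 1.35 CPM in S2, S4, A and D, against 4.86, 5.02, 6.12 and 5.96 CPM in S5, S8, G and L (-1.27 ± 0.27). The order of the genotypes differed between the sets, as A and D were the lowest clutches and G and L the highest. *hsp90aa1.1*, the Hsp90 paralogue known for its role in muscle myosin folding, had 320, 225, 109 and 111 CPM in S2, S4, A and D and 396, 413, 542 and 306 CPM in S5, S8, G and L (-1.26 ± 0.30). Here S2 overlapped with L. A near-identical neighbour on chromosome 20, *hsp90aa1.2*, makes both values uncertain. *hspb1*, a small heat shock protein gene, was at -0.77 and *ahsa1b*, an Hsp90 cochaperone gene, at -0.38, while *hsf1* itself was the gene called higher (0.56). These last 2 genes were named after their values had been seen. With the span offset 0 genes of the list were called higher and 3 lower, and *hsf1*, *ahsa1b* and *serpinh1b* lost their calls. Calls of *hsph1* were lost without A, D, G or L, and those of *hsp90aa1.1* without S4, A, D or L. *hspb1* kept its call in 1 of the 8 fits without 1 clutch.

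Hsp90aa1.1 acts in muscle, so the muscle list is given beside the chaperones. Of 47 fast skeletal muscle genes, 46 had a negative difference, against 13086 of all 23567 genes. The list median of -0.50 came from -0.18 in mutant and -0.88 in wild type clutches. Of the 47 genes 0 were called by edgeR's quasi-likelihood fit and 0 by limma-voom, while 25 had an unadjusted p under 0.05, the likelihood-ratio test called 15 and DESeq2 17. The summed level of the list was 88509, 97326, 83375 and 57569 CPM in S2, S4, A and D, against 113900, 99579, 117410 and 136550 CPM in S5, S8, G and L. The part of muscle content in the chaperone differences was not tested.

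Immediate early genes are transcribed within minutes of a stimulus. Of 48 tested, 8 were called lower in clutches 1 and 2 (1.27% of all genes), 40 were not called and 0 were called higher by edgeR's quasi-likelihood fit, where 24 had an unadjusted p under 0.05, and 10, 11 and 6 were called in either direction by the likelihood-ratio test, DESeq2 and limma-voom. The median was -0.22 (mutant -0.31, wild type -0.25). *fosab*, a subunit of the AP-1 transcription factor, had 3.53, 4.55, 3.95 and 9.13 CPM in S2, S4, A and D, against 10.1, 9.23, 16.7 and 10.4 CPM in S5, S8, G and L (-1.15 ± 0.26). D came close to S8, and the other 3 clutches of its set were lower. *egr1* was at -0.89 (mutant -0.36, wild type -1.41) and *ier2a* at -0.77. The sets of *egr1* overlapped, as S4 (22.8 CPM) lay above S8 (21.6 CPM). Of the 8 fits without 1 clutch, *fosab* and *egr1* kept the call in 2 and *ier2a* in 7. These genes are short, with a median span of 4.74 kb over the list, and with the span offset 1 of them, *ier2a*, was still called lower.

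The hypoxia list kept its calls under that offset. It holds targets of the transcription factor Hif, which is stable when oxygen is low. Of 45 genes tested, 3 were called lower in clutches 1 and 2, and 1 was called higher (1.27% and 5.17% of all genes). The lower genes were *p4ha1b* (-1.09), *p4ha2*, of the same enzyme (-0.79), and *egln1b*, the oxygen-sensing prolyl hydroxylase that targets Hif for destruction (-0.87). The higher gene was the mitophagy receptor gene *bnip3la* (0.74). Of the 8 fits without 1 clutch, *p4ha1b* kept its call in 4, *p4ha2* in 3, and *egln1b* and *bnip3la* in 2 each. *egln1b* had 19.2, 22.6, 19.04 and 17.6 CPM in S2, S4, A and D, against 42.9, 24.5, 32.4 and 43.7 CPM in S5, S8, G and L, so the sets were apart by a small margin between S4 and S8. The list median was -0.23.

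Of the remaining stress lists, 36 genes of the amino acid response had 2 lower and 1 higher (1.27% and 5.17% of all genes). The 2 lower genes were *atf4a* (-0.47), the central transcription factor of this response, and *nupr1a* (-0.58). The 1 higher gene was the amino acid transporter *slc7a5* (1.18 ± 0.19). *slc7a5* was at 25.4, 18.3, 18.02 and 21.7 CPM in S2, S4, A and D and at 8.65, 13.96, 8.03 and 6.83 CPM in S5, S8, G and L. It separated the sets and kept its call without any 1 clutch. The 37 oxidative stress genes held *txnrd2.2* (1.11) and the metal-responsive factor *mtf1* (1.05) on the higher side and the transporter *abcc2* (-0.55) on the lower side. The inflammation regulator *tnfaip3* was higher (1.07), and it was the 1 called gene of 35 in its list. The 36 p53 targets held 1 called gene, *gadd45ba* (-0.68), which is also in the immediate early list. As above, 5.17% of all genes were called higher and 1.27% lower. Of the 8 fits without 1 clutch, *tnfaip3* kept its call in 5, *atf4a* in 3, and *nupr1a* and *mtf1* in 2. *txnrd2.2*, *abcc2* and *gadd45ba* kept theirs in 1. With the span offset *slc7a5*, *tnfaip3* and *abcc2* stayed called, while *atf4a*, *nupr1a*, *txnrd2.2*, *mtf1* and *gadd45ba* did not.

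Energy genes had small differences that were mostly of one sign. Oxidative phosphorylation couples the respiratory chain to ATP synthesis in mitochondria, with subunits from both the nuclear and the mitochondrial genome. Of 90 nuclear subunit genes, 88 had a negative difference, against 13086 of all 23567 genes. The direction was the same in both genotypes for 85 (58.1% over all genes). For 51 the sets did not overlap and were lower in clutches 1 and 2, as for 5.99% of all genes, and 8 were called lower, against 1.27% of all genes. The list median was -0.32 (mutant -0.28, wild type -0.36). The summed level was 11146, 11746, 11254 and 10202 CPM in S2, S4, A and D, against 14742, 12649, 13008 and 14534 CPM in S5, S8, G and L, with every clutch of the first set lower.

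The named members belong to complex I, the NADH dehydrogenase, apart from *ndufa4a*, whose product is now placed in complex IV. *ndufa4a* had 211, 238, 224 and 211 CPM in S2, S4, A and D and 345, 289, 289 and 333 CPM in S5, S8, G and L (-0.51 ± 0.11). *ndufa6* was at -0.44, *ndufb8* at -0.44 and *ndufa11* at -0.41, and the sets did not overlap for any of the 4. Of the 8 fits without 1 clutch, *ndufa4a* and *ndufa11* kept the call in 3, and *ndufa6* and *ndufb8* in 1. These genes are short, with a median span of 5.66 kb over the list, and with the span offset the list median was -0.20 with 2 calls. The 15 mitochondrial genes tested all had negative differences (median -0.29), as did all 79 ribosomal protein genes (median -0.30, mutant -0.50, wild type -0.07). Both lists are of short genes, with median spans of 0.952 and 5.58 kb. With the span offset their medians were -0.11 and -0.18. The acidic ribosomal stalk gene *rplp2* (-0.47) was the 1 called gene among the ribosomal proteins, where 1.27% of all genes were called lower. Its call was lost in all 8 fits without 1 clutch, and with the offset for span or for exon length.

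Tissue, stage and stress markers were then counted together. Over the 44 lists, 1539 listed genes were tested, and 29 (1.88%) were called higher and 32 (2.08%) lower, against 5.17% and 1.27% of all genes. In 25 lists no gene was called by edgeR's quasi-likelihood fit. Each of these 25 held at least 1 gene with an unadjusted p under 0.05, and the likelihood-ratio test called a gene in 17 of them, DESeq2 in 20 and limma-voom in 2. The list median was positive for 4 lists and negative for 40. Over all genes tested the median was itself negative (-0.05), with a negative difference for 13086 of 23567 genes.

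**Figure D4:**
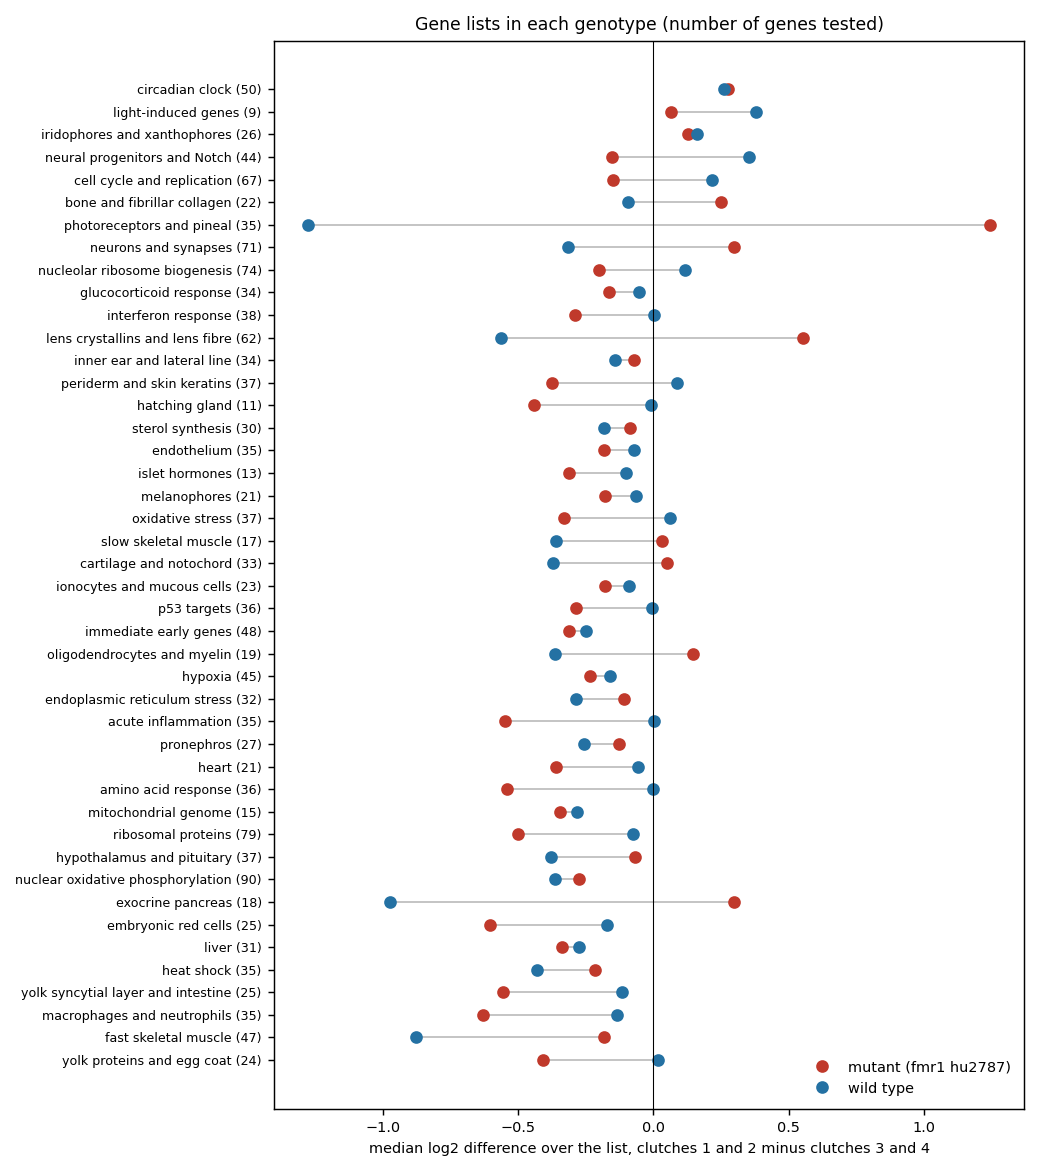
Median log2 difference (clutches 1 and 2 minus clutches 3 and 4) of each of 44 gene lists in mutant (red) and wild type (blue) clutches, with the number of genes tested in brackets and the lists ordered by their median fold change over the 8 clutches. The circadian clock has 0.28 and 0.26, nuclear oxidative phosphorylation has -0.28 and -0.36, and the photoreceptor and pineal list lies at 1.25 in mutant and -1.28 in wild type clutches.

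Of 71 genes of neurons and synapses, 6 were called higher in clutches 1 and 2 (5.17% of all genes). The median span of the list was 34.3 kb. In the tenth of all genes that spanned 29.1 to 44.7 kb, 7.94% were called higher. *syt2a*, a calcium sensor of synaptic vesicles, had 7.52, 6.76, 6.78 and 6.02 CPM in S2, S4, A and D, against 1.80, 3.09, 2.12 and 1.32 CPM in S5, S8, G and L. Its sets were far apart in both genotypes (1.71 ± 0.22; mutant 1.57, wild type 1.89), and it kept the call without any 1 clutch. *slc17a6a*, a vesicular glutamate transporter of excitatory neurons, was at 0.87 and *scn1lab*, a sodium channel, at 0.70. The sets overlapped for *scn1lab*, which was not called with the span or exon length offset. It kept its call in 1 of the 8 fits without 1 clutch, and *slc17a6a* in 3. The list as a whole did not share that direction. Its median was -0.06, with 0.30 in mutant and -0.32 in wild type clutches. Of its genes, 43 were higher in mutant clutches 1 and 2 and lower in the wild type ones, against 4660 of all 23567.

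Among 44 genes of neural progenitors and the Notch pathway, 2 were called higher, a share no larger than the 5.17% of all genes, among them the Notch receptor gene *notch1b*. It had 39.8, 46.1, 80.2 and 75.8 CPM in S2, S4, A and D, against 32.0, 23.9, 35.6 and 31.1 CPM in S5, S8, G and L (0.92 ± 0.15). The wild type clutches A and D were the highest, and the sets did not overlap. Of 67 cell cycle genes 0 were called by edgeR's quasi-likelihood fit (2 at an unadjusted p under 0.05, 0 by the likelihood-ratio test, 1 by DESeq2 and 0 by limma-voom), and their median was -0.01, with -0.15 in mutant and 0.22 in wild type clutches.

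Of 26 iridophore and xanthophore genes, 4 were called higher (5.17% of all genes), and the list median was 0.16, against -0.05 over all genes. Each of the 4 lost the call in 6 or more of the 8 fits without 1 clutch. They were *ednrba*, an endothelin receptor of iridophores (0.98), *slc2a15a*, a sugar transporter gene (0.84), *alx4b* (0.77) and *mycbp2* (0.37), which is expressed far beyond pigment cells and was not called with the span offset. *ednrba* had 9.36, 4.73, 7.80 and 9.18 CPM in S2, S4, A and D and 4.34, 4.31, 3.75 and 3.36 CPM in S5, S8, G and L. S4 was again nearest to the second set. Of 21 melanophore genes 0 were called by edgeR's quasi-likelihood fit (2 at an unadjusted p under 0.05, and 0 by the likelihood-ratio test, DESeq2 and limma-voom).

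A single gene was called in each of 5 other tissue lists, where 5.17% of all genes were called higher and 1.27% lower. The lists held 62 (lens), 33 (cartilage and notochord), 27 (pronephros), 13 (islet) and 23 (ionocyte and mucous cell) tested genes. For the lens, cartilage and pronephros lists the share called higher was thus below that of all genes. These were *bfsp1*, a lens fibre filament gene (0.76), *sox9a*, the cartilage regulator (0.35), *frmd4a* in the pronephros list (1.04), the islet and motor neuron factor *mnx1* (-0.50), and *atp1a1a.3*, a sodium pump subunit of ionocytes (-0.45). In the 8 fits without 1 clutch, the calls of *bfsp1*, *sox9a* and *mnx1* were lost in all 8 and that of *atp1a1a.3* in 7. *frmd4a* kept its call in all of them, with 26.7, 21.5, 25.6 and 23.1 CPM in S2, S4, A and D, against 12.2, 12.3, 12.8 and 9.93 CPM in S5, S8, G and L. Its sets were well separated. It spans 76.5 kb. The pronephros list does not hold *frmd4a* by that name, and the gene was matched to an entry through another symbol. It is therefore not read as a kidney marker here. The sterol regulator *srebf1* (0.88) was the 1 called gene of 30 in the sterol synthesis list, also below the 5.17% of all genes. *srebf1* kept its call in 2 of the 8 fits without 1 clutch. Called genes were spread over the genome, from 2.42% of the genes tested on chromosome 4 to 9.06% on chromosome 23.

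The set difference could also differ between the genotypes, and by the interaction term of edgeR's quasi-likelihood fit 24 genes were called (0.102% of 23567, FDR under 0.05), with 3558 genes at an unadjusted p under 0.05. In 19 of the 24 the difference was more positive in the mutant clutches, and in 5 it was more negative. In 21 of them the 2 genotypes moved in opposite directions. These calls describe the clutches and test nothing, since the wild type side of the term was in view when the split was chosen. The count depended on single clutches: it was 134 without S2, 2 without S4, 60 without S5, 958 without S8, 6 without A, 0 without D, 1 without G and 0 without L, where 2358 genes without D and 2264 without L still had an unadjusted p under 0.05. The likelihood-ratio test called 783 genes, DESeq2 657 and limma-voom 17.

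Genes of photoreceptors were among the 24. *crx*, the homeobox factor that switches on photoreceptor and pineal genes (ENSDARG00000011989, chromosome 5, 36932718 to 36936443), had 190 and 187 CPM in the mutant clutches S2 and S4, against 123 and 115 CPM in S5 and S8. In the wild type clutches the order was turned round, with 80.6 and 84.5 CPM in A and D, against 165 and 184 CPM in G and L. The interaction, mutant minus wild type, was 1.75 ± 0.17 on the log2 scale. An overlapping gene on the other strand, ENSDARG00000097813, had the same pattern (1.75 ± 0.18), and the counting kept strands apart. *elovl4b*, which makes the very long chain fatty acids of photoreceptor membranes, had 30.7 and 44.4 CPM in S2 and S4 and 13.8 and 14.3 CPM in S5 and S8, but 13.5 and 11.5 CPM in A and D and 23.6 and 28.0 CPM in G and L (2.47 ± 0.27).

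Most of the photoreceptor and pineal list had the layout of *crx*. Of its 35 genes, 30 were higher in mutant clutches 1 and 2 and lower in the wild type ones, against 4660 of all 23567. The direction was the same in both genotypes for 3 (8.57%, against 58.1% of all genes). Its median was 1.25 in mutant and -1.28 in wild type clutches, which cancelled to -0.04 in the average, and 0 of the 35 were called for the sets by edgeR's quasi-likelihood fit (1 at an unadjusted p under 0.05, and 0 by the likelihood-ratio test, DESeq2 and limma-voom). For the interaction 2 of the 35 were called by edgeR's quasi-likelihood fit (0.102% of all genes), *crx* and the green cone opsin *opn1mw2*. For that term 28 of the 35 had an unadjusted p under 0.05. The likelihood-ratio test called 22 of them, DESeq2 21 and limma-voom 1. *opn1mw2* rested on few reads, with 2 counts each in A and D and 4 and 8 in S5 and S8. The summed level of the list was 518 and 1075 CPM in S2 and S4 and 289 and 389 CPM in S5 and S8, and it was 210 and 210 CPM in A and D and 453 and 518 CPM in G and L.

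The highest clutch was not the same for all of these genes. *crx* was marginally higher in S2 than in S4, while S4 was far above S2 for 2 cone genes. The red cone opsin *opn1lw2* had 35.0 and 185 CPM in S2 and S4, 8.32 and 32.4 CPM in S5 and S8, 4.11 and 2.102 CPM in A and D, and 32.5 and 43.2 CPM in G and L. *arr3a*, a cone arrestin, had 33.2 and 106 CPM in S2 and S4 and 11.2 and 26.3 CPM in S5 and S8, with 7.32 and 7.28 CPM in A and D and 28.7 and 32.2 CPM in G and L. In both genes A and D were the lowest clutches, and S2 was close to S8, G and L. Both were chosen after their values had been seen, and neither was called for the sets or for the interaction. These 2 genes thus put S4 first and A and D last, an order that did not follow the title numbers.

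**Figure D5:**
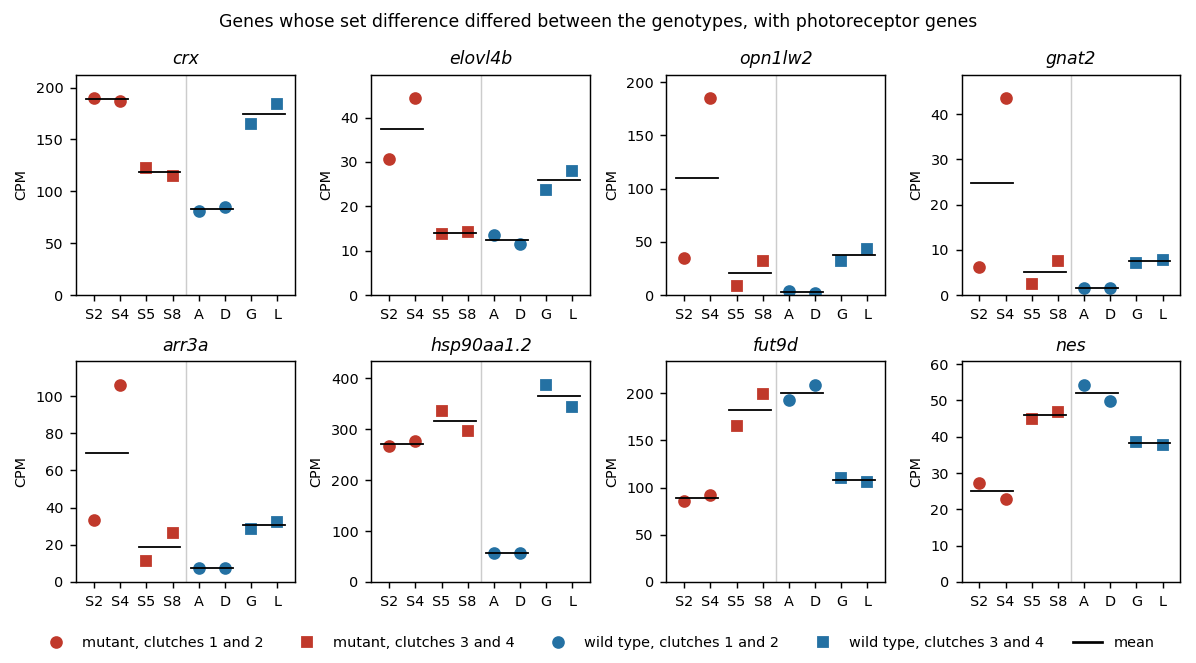
Level (CPM, linear axis from 0) of 8 genes in each clutch, in the order mutant clutches 1 and 2, mutant clutches 3 and 4, wild type clutches 1 and 2 and wild type clutches 3 and 4, with a line for the mean of each pair. For *crx* the mutant clutches S2 and S4 (190 and 187 CPM) and the wild type clutches G and L (165 and 184 CPM) are high, while *fut9d* and *nes* show the opposite layout and *hsp90aa1.2* is low in A and D alone (56.2 and 56.4 CPM).

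The lens list had a like layout in its medians, with 0.55 in mutant and -0.56 in wild type clutches. Of its 62 genes, 43 were higher in mutant clutches 1 and 2 and lower in the wild type ones, against 4660 of all 23567. In its summed level, S5 (8681 CPM) lay above S4 (8636 CPM) and G (7713 CPM) below D (7741 CPM), while S8 was lowest (4649 CPM) and L highest (12589 CPM). For the interaction 0 were called by edgeR's quasi-likelihood fit, with 23 at an unadjusted p under 0.05. The likelihood-ratio test called 11, DESeq2 9 and limma-voom 0. In the exocrine pancreas list, whose digestive enzymes mark late differentiation, the medians over 18 genes were 0.30 and -0.97, but the sign in mutant clutches turned with the method, since the fits of each genotype alone gave -0.16 and -1.52. Neural progenitor, cell cycle and nucleolar genes lay the other way. Of the 67 cell cycle genes 42 were lower in the mutant clutches 1 and 2 and higher in the wild type ones, as were 48 of 74 nucleolar genes. The same held for 5202 of all 23567 genes. Summed over the cell cycle list, S2, S4, S5 and S8 had 3829, 3607, 5367 and 3121 CPM, so S8 lay below S2 and S4. It also did for neural progenitors (2189 CPM, against 2343 and 2290), but not for nucleolar genes (3171, against 2882 and 2962). For the interaction 0 of the 67 cell cycle genes were called by edgeR's quasi-likelihood fit, the likelihood-ratio test, DESeq2 or limma-voom. An unadjusted p under 0.05 was found for 6 by edgeR's quasi-likelihood fit. The progenitor filament gene *nes*, named after its values had been seen, was called for the interaction, with 27.3 and 22.9 CPM in S2 and S4, against 45.0 and 46.9 CPM in S5 and S8, and with 54.2 and 49.9 CPM in A and D, against 38.5 and 37.8 CPM in G and L (-1.32 ± 0.17).

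First in the order of the interaction term was *hsp90aa1.2* (ENSDARG00000024746, chromosome 20, 53967350 to 53981626). It had 266 and 276 CPM in S2 and S4, 336 and 297 CPM in S5 and S8, 56.2 and 56.4 CPM in A and D, and 387 and 345 CPM in G and L. The set difference was -0.22 in mutant and -2.70 in wild type clutches, and the interaction was 2.48 ± 0.19. *serpinh1b* had the same form (2.53 ± 0.34). For these 2 chaperone genes and for *g6pc1a.1* both genotypes had the same sign, unlike the other 21. A and D were thus the clutches that stood out for *hsp90aa1.2* and *serpinh1b*.

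The 2 remaining genes named for the interaction were *tmx3a*, which encodes a thioredoxin-like protein of the endoplasmic reticulum, and *fut9d*, a fucosyltransferase. *tmx3a* had 14.4 and 16.3 CPM in S2 and S4 and 6.44 and 8.43 CPM in S5 and S8, with 3.47 and 4.52 CPM in A and D and 10.9 and 10.23 CPM in G and L (2.44 ± 0.28). *fut9d* had 85.6 and 92.3 CPM in S2 and S4 and 165 and 199 CPM in S5 and S8, with 193 and 209 CPM in A and D and 111 and 106 CPM in G and L (-1.92 ± 0.19). With *nes*, *pnp5a*, *fbp1a* and *g6pc1a.1* it made up the 5 genes whose set difference was more negative in the mutant clutches. The median span of the 24 genes was 10.6 kb, below that of all genes tested.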

How the data were processed

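Poly-A RNA of 8 pools of whole embryos was sequenced with a stranded library. According to their methods and the file header, the authors trimmed reads, used STAR (2.5.3a) to align them to GRCz11, and obtained gene counts from featureCounts (1.5.2). A read counted if its mapping quality reached 10 and all of it fell in exons of the sense strand. The deposited table gives raw read counts for each gene and library. Reads can be PCR copies, so they are not independent molecules.

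A symbol was found for all but 3018 of the 32057 genes, through a name table, the neighbouring genes of a RefSeq annotation of another assembly, or gene names listed by the study. Of 1033 matches by neighbours that the study also names, 964 had its symbol. Of 1436 list entries, 1382 were matched. A gene was kept if 4 or more libraries held a count above 1. They were normalised by TMM and fitted with edgeR (4.0.16) in R (4.3.3) by its quasi-likelihood test, with terms for genotype and set, or with their interaction, which is given as a description because the wild type difference was known when the split was chosen. Benjamini-Hochberg adjustment was made over all 23567 genes. Log2 fold changes are clutches 1 and 2 over clutches 3 and 4, and each SE is the fold change divided by the root of F. Differences within a genotype used log2 CPM with a prior count of 2. Measures of the libraries were compared by exact permutation within genotype. The scripts were tested on simulated data. Replicates are separate clutches, so the spread is that between clutches.

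The members, the gene lists and the rule for naming genes were chosen with earlier results of these data known. The rule named, of genes with a symbol, a mean of at least 1 CPM and sets that did not overlap, the 10 called with the largest change in each direction. It also named up to 4 called genes with the largest change per list, the clock genes, *fmr1*, *mitfa*, and the 6 genes with the smallest p of the interaction. Some genes named by this rule are not reported here. Alternatives were the likelihood-ratio test, DESeq2 (1.42.0), limma-voom (3.58.1), RLE and upper quartile normalisation, other filters, other model terms, the replicate number as a block and leaving out each clutch. The offsets for exon length and genomic span were chosen after seeing the data. Conditional quantile normalisation, which the study used, was not run, as no GC content was used here.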

Additional observations from a re-analysis of the deposited data

Results flagged for a closer look

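In 15 of 228 sets of 4 clutches, tested for named genes and library measures, 1 clutch lay far from the other 3. Its gap to the nearest of them passed Dixon's limit for 4 values, and chance gives this in about 1 of 20 sets. The share of the range is given for each. S4 was the clutch apart in clutches 1 and 2 for *per1b* (0.917), *cry2* (0.914), *per3* (0.886), *ankrd52a* (0.859) and *cry1a* (0.857), of which 4 are clock genes. Clock genes were a large part of the genes examined, because the rule named every tested member of that list. D was apart in the same set for *bfsp1* (0.911), *ndufa6* (0.866) and *ndufb8* (0.848), and S2 for *tnfaip3* (0.842). In clutches 3 and 4, S8 was apart for *cry1a* (0.847), S5 for *rorab* (0.886), *clocka* (0.866) and *egr4* (0.859), and L for *parapinopsinb* (0.922) and *mxra5b* (0.858).

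For 7 of the genes that the naming rule gave, edgeR's interaction term was called. This is a description and no test, because the wild type difference it contains was in view when the split was chosen. The mutant minus wild type values on the log2 scale were 2.48 for *hsp90aa1.2*, 1.75 for *crx*, -1.92 for *fut9d*, 1.75 for ENSDARG00000097813, 2.47 for *elovl4b*, 2.44 for *tmx3a* and 2.53 for *serpinh1b*. In the mutant clutches, those numbered 1 and 2 were higher for *crx* (0.67), ENSDARG00000097813 (0.61), *elovl4b* (1.39) and *tmx3a* (1.05). In the wild type clutches, those numbered 1 and 2 were lower for the same 4 genes (-1.08, -1.14, -1.04 and -1.40).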

How the results depend on the processing

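Against 1218 genes higher and 300 lower in clutches 1 and 2, DESeq2 called 1964 and 815, the likelihood-ratio test 1665 and 648, the average of the interaction model 1572 and 671, the fit with no genotype term 1046 and 183, the wild type clutches alone 1900 and 1488, and the mutant clutches alone 0 and 0. Leaving out each clutch in turn gave 289 to 1298 higher and 17 to 403 lower. The causes of these changes were not tested. For the interaction, called for 24 genes, the count was 783 by the likelihood-ratio test, 657 by DESeq2, 7 with upper quartile normalisation, 163 with no filter on low counts, 15 with a filter on more than 1 CPM, 13 with the length offset, 7 with the span offset and 0 to 958 without 1 clutch. With the replicate number as a block it was 0, with 3037 genes at an unadjusted p under 0.05. The deviations of same-numbered clutches from their genotype means had correlations of 0.33, -0.20, 0.02 and 0.25. These deviations contain the set difference, and whether the numbers pair the clutches was not tested. The set difference could not be fitted with that block, because each number lies in 1 set. Of the named genes that were called, none changed direction under the alternatives run for them. Because these genes were picked for their differences in the same libraries, that carries no support of its own. Over named genes and lists, 438 values lost a call and 183 moved by more than the spread, against 1961 that did neither. Depth limits the low genes: *scn1laa* rested on 3 to 75 counts per clutch. Each set held only 2 clutches per genotype.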
